A study of Mus musculus with 49 samples.

Results

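The expression of 8 Toll-like receptor genes (Tlr1, Tlr2, Tlr4, Tlr6, Tlr7, Tlr8, Tlr9 and Tlr13), of their shared adaptor Myd88 and of the receptor-like gene Cd180 was followed from normal blood progenitors to leukaemias. These 10 genes were chosen by symbol, with earlier results of these data known, so that counts among them are a description. Each matched 1 of the 38253 Ensembl rows of the deposited expression table. RNA-seq covered 30 normal samples and 19 leukaemias from C57BL/6J mice, which the labels list as wild type and 6 to 12 weeks old. Values were in FPKM, that is, sequenced fragments scaled by transcript length and library size.

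Normal bone marrow cells of female mice had been sorted into 6 populations. LT-HSC (n = 5), the long-term stem cells, were Lin- Sca-1+ c-Kit+ CD150+ with little or no CD34. ST-HSC (n = 5), the short-term stem cells, were the same but CD34+, and MPP (n = 6), the multipotent progenitors, were CD150- and CD34+. Further down stood CMP (n = 5), the progenitors common to the myeloid lineages, GMP (n = 5), which give rise to granulocytes and macrophages, and MEP (n = 4), which give rise to megakaryocytes and red cells. CMP and GMP were c-Kit+ Sca-1- CD34+ cells with a low or a high level of the Fc gamma receptor, and the gate for MEP is not described here. Leukaemias were named for the cell that had received the MLL-AF9 fusion (MA9) from a retrovirus also carrying GFP. There were 3 leukaemias from ST-HSC (STHSC:MA9), 6 from MPP (MPP:MA9), 4 from CMP (CMP:MA9) and 6 from GMP (GMP:MA9). Infected cells were put straight into sublethally irradiated recipients, and GFP+ cells were sorted from the sick mice, from spleen according to the methods and from bone marrow according to the labels. Each sample came from its own mouse, the fusion was driven from a viral promoter, and no control carried an empty virus, so that infection, transplantation and the fusion cannot be told apart.

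Toll-like receptors recognise microbial products and pass the signal through the adaptor protein Myd88 to kinases of the IRAK family and on to NF-kB and interferon regulatory factors. Tlr2 pairs with Tlr1 or Tlr6 at the cell surface to bind bacterial lipopeptides, Tlr4 binds lipopolysaccharide together with Cd14 and Ly96, and Tlr7, Tlr8, Tlr9 and Tlr13 sit in endosomes and respond to nucleic acids. Cd180 resembles these receptors outside the cell but lacks their signalling domain, and it works as a complex with Ly86. In bone marrow these genes are best known from monocytes, macrophages, dendritic cells and B cells, and stem and progenitor cells express some of them.

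All positions are from the GENCODE M1 annotation of NCBIM37, which is the mm9 assembly. Tlr1 (ENSMUSG00000044827) lies at chr5:65316050-65324000 and Tlr6 (ENSMUSG00000051498) at chr5:65344345-65351287, both on the minus strand and 20344 bases apart. They are close relatives: 23.5% of the 31-base windows in the exons of Tlr1 occur in Tlr6, and 23.7% of those of Tlr6 occur in Tlr1, so the split of reads between them rests on the estimation step. Tlr8 (ENSMUSG00000040522, chrX:163680626-163702261) and Tlr7 (ENSMUSG00000044583, chrX:163742861-163768490) are also neighbours on the minus strand, 40599 bases apart, and share no such windows with other genes. Tlr13 (ENSMUSG00000033777) lies elsewhere on the same chromosome, at chrX:103338543-103355832 on the plus strand. Tlr2 (ENSMUSG00000027995, chr3:83640195-83645689, minus strand), Tlr4 (ENSMUSG00000039005, chr4:66488618-66591318, plus strand) and Tlr9 (ENSMUSG00000045322, chr9:106124929-106129207, plus strand) overlap no other gene. Myd88 (ENSMUSG00000032508, chr9:119245052-119250529, minus strand) shares 67 exon bases with Acaa1a on the other strand. Cd180 (ENSMUSG00000021624, chr13:103483638-103529709, plus strand) shares 182 exon bases with Mast4 on the other strand, and since the library kit did not keep strand, reads there cannot be assigned. All 10 genes are annotated as protein coding, with their exons merging into 2 to 6 blocks.

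The promoters of Tlr13, Tlr8 and Tlr9 are shown because these endosomal receptors had some of the widest gaps between normal and leukaemic cells below. The sequences run from 250 bases before to 50 bases after the RefSeq start, 5′ to 3′ on the strand of the gene, and were located in NCBIM37 at chrX:103338364-103338663 for Tlr13, chrX:163702212-163702511 for Tlr8 and chr9:106124679-106124978 for Tlr9. Capitals mark matches, on either strand, to GAGGAA (the core of PU.1 sites) or to TTNNGNAA (a loose C/EBP pattern).
Tlr13: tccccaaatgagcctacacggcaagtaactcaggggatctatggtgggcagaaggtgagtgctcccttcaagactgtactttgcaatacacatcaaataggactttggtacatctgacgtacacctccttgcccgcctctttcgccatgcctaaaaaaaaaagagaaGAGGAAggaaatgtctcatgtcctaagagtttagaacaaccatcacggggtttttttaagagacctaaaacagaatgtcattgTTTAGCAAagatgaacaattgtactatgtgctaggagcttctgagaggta
Tlr8: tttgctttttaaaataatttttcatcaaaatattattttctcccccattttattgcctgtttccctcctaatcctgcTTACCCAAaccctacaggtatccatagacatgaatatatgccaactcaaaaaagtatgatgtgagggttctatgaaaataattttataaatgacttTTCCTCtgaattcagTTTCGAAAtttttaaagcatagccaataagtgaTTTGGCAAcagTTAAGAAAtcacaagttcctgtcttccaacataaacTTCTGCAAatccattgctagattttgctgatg
Tlr9: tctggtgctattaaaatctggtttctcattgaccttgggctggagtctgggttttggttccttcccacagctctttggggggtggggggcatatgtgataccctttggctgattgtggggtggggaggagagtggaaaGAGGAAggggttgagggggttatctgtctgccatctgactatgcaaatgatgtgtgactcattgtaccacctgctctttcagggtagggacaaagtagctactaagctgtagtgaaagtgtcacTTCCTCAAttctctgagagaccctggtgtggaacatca
Among 32851 promoters of this length, 28.3% held GAGGAA and 40.7% held TTNNGNAA, so that both are common strings. Tlr13 held 1 match to each, Tlr8 1 to GAGGAA and 5 to TTNNGNAA, and Tlr9 2 to GAGGAA and 1 to TTNNGNAA, where the final match of Tlr9 lies over both patterns. Matches to a loose NF-kB pattern (GGG and CC with any 5 bases between, in 50.8% of promoters) and to an interferon response pattern (GAAA and GAAA with any 2 bases between, in 3.44%), both searched on either strand, did not occur in these windows. Over the other members with a promoter entry, the interferon response pattern was found at Myd88, with 1 match, and at 1 of the 2 starts of Tlr6, with 2 overlapping matches. The loose NF-kB pattern was found at Tlr2, with 5 matches, and at the other start of Tlr6, with 1. Tlr1 held no match to TTNNGNAA and 1 to GAGGAA, at 1 of its 2 starts, and Cd180 held none of these patterns. These are matches of letters and say nothing about binding in these cells.

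Several libraries stood apart by marker genes, which were chosen with earlier results of these data known. Replicates 4 and 5 of LT-HSC and of ST-HSC held between 7352.56 and 62595.25 summed FPKM over 6 granulocyte genes (S100a8, S100a9, Ngp, Ltf, Camp and Mmp8), against 19.09 to 1101.88 in replicates 1 to 3. The same 4 libraries held 1778.65 to 9754.01 FPKM over 5 monocyte and macrophage genes (Csf1r, Ly6c2, Adgre1, Cd68 and Lyz2), against 95.45 to 394.6 in replicates 1 to 3, and 33.59 to 127.83 over 4 B cell genes (Cd79a, Cd79b, Ms4a1 and Pax5), against 14.85 to 24.52. Over 4 erythroid genes these libraries held 3816.10 to 44256.37 FPKM, against 61.83 to 3793.14 FPKM in replicates 1 to 3. MEP replicates 3 and 4 held 65.78 and 93.16 FPKM over the B cell genes, against 10.47 and 9.85 in replicates 1 and 2. Most changes named for the 10 genes that rest on these stem cell libraries are given with and without them. Every leukaemia held little Kit (0.33 to 5.94 FPKM, against 43.18 to 151.6 in normal samples) and much Cd68 (223.68 to 637.8 FPKM, against 2.27 to 107.75). Relative depth, read from the steps between low values, ranged from 0.496 to 1.53 of the median sample, with STHSC:MA9 between 0.567 and 0.857 and MPP between 1.15 and 1.4.

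**Figure D1:**
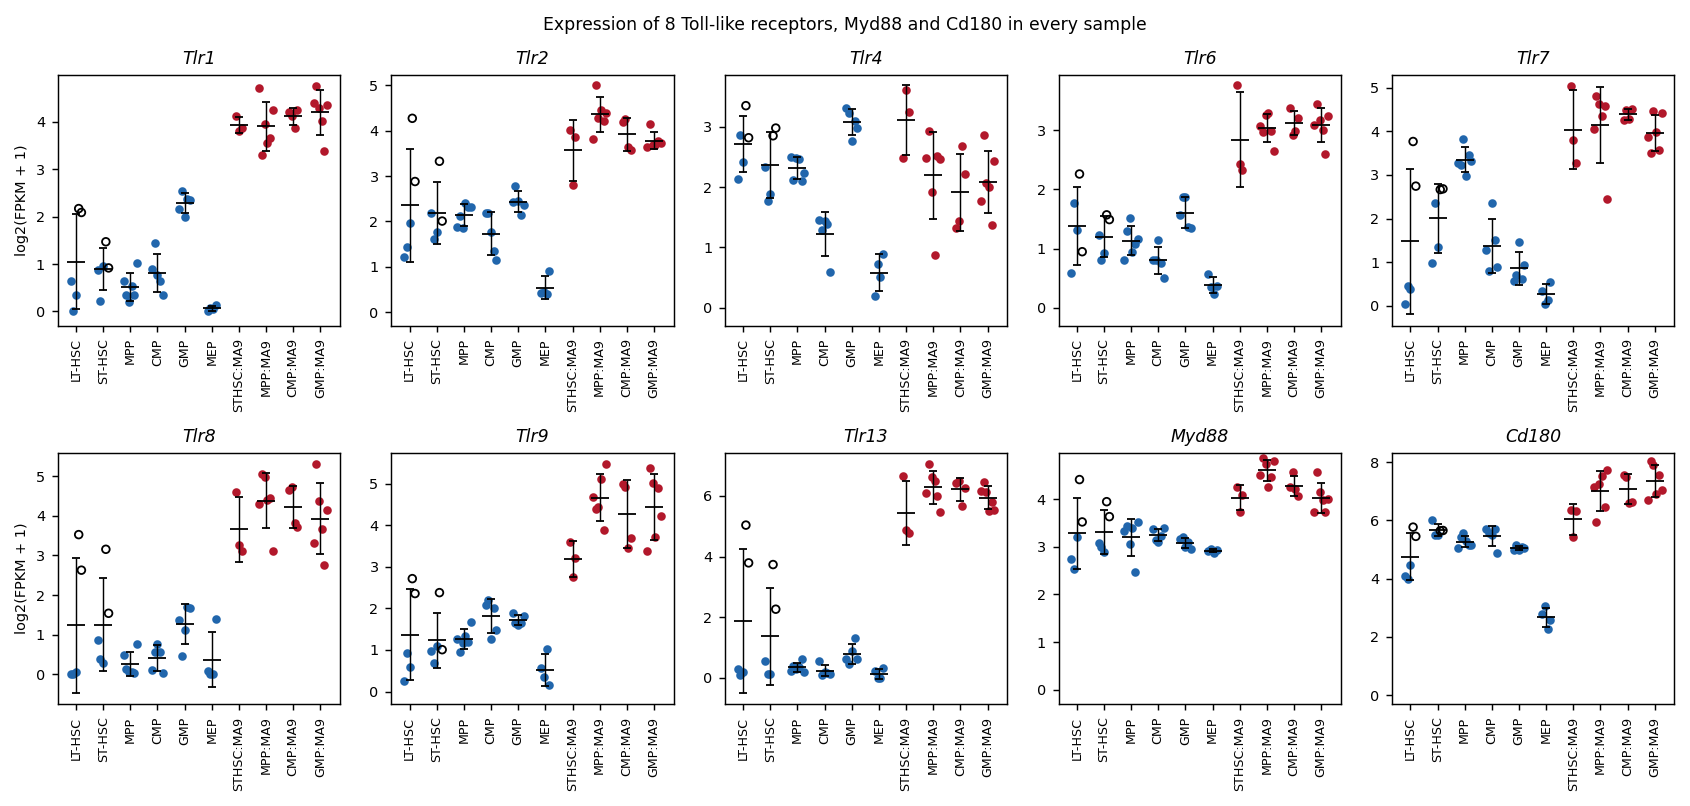
Expression of the 10 genes as log2(FPKM + 1) in each of 49 samples (points), by group, with normal cells in blue, leukaemias in red, and the mean and SD of each group. Open circles are replicates 4 and 5 of LT-HSC and ST-HSC, where Tlr13 reached 31.82 FPKM, while the other 26 normal samples stayed at or below 1.52 FPKM, and Tlr4 ran from 0.83 to 11.28 FPKM in leukaemias and from 0.14 to 9.21 FPKM in normal cells.

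Each leukaemia was first set beside its own cell of origin, to ask how the receptors differ once the cell is transformed. Most of the 10 genes were higher in the leukaemias, and none was called lower in any of the 4 comparisons. The largest differences were those of Tlr13, which rose by 4.06 to 5.98 on the log2(FPKM + 1) scale, a scale that understates the change of genes near 0. Tlr1, Tlr2, Tlr6, Tlr8, Tlr9 and Tlr13 rose in all 4 comparisons, Tlr7 and Cd180 in 3, Myd88 in 2 and Tlr4 in none. The share of all genes called higher in all 4, or higher in every leukaemia than in every normal sample, was not computed.

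A gene was called with limma at a Benjamini-Hochberg adjusted p below 0.05 over all genes tested and a log2 change beyond 1 in size, and all 10 genes had a mean of at least 1 FPKM and were tested. In normal samples without the 4 stem cell libraries above, Tlr8 and Tlr13 averaged 0.531 and 0.308 FPKM, below that minimum. These 2 genes were tested through the leukaemias and those libraries, so a fall could hardly have been called for them. In STHSC:MA9 against ST-HSC 7 of the 10 were called higher, where 12.3% of 12600 genes were called higher. Without the 4 stem cell libraries above, Tlr1, Tlr6, Tlr7, Tlr9 and Cd180 changed there by 3.24, 1.85, 2.48, 2.27 and 0.36, with the same calls. Tlr4 (1.12) and Myd88 (1.04) were then called higher as well, and no call was lost. In MPP:MA9 against MPP 8 were called higher, against 13.5% of all genes, and in CMP:MA9 against CMP 9, against 13%. In GMP:MA9 against GMP 8 were called higher, against 13.5% of all genes. The share of all genes called lower was 11.9%, 13.6%, 14.8% and 8.87% in the same order, and the count of these 10 genes was 0 each time. The median change of the 10 genes was 1.79, 2.06, 2.39 and 2.10, beside -0.04, -0.09, -0.16 and 0.00 over all genes tested. Fewer cells of a type and less RNA per cell cannot be told apart in such bulk samples. The monocyte and macrophage genes moved with these differences, with a sum of 4343.71 to 14130.07 FPKM in the leukaemias. Beside this stood 232.39 to 409.83 FPKM in MPP, 181.03 to 455.29 FPKM in CMP and 1935.73 to 3087.53 FPKM in GMP. In ST-HSC the sum ran from 290.89 to 4887.73 FPKM, with the highest value in replicate 4, and so reached into the range of the leukaemias. The granulocyte genes summed to 729.89 to 40243.15 FPKM in MPP:MA9 beside 11.01 to 797.17 FPKM in MPP, and to 1185.01 to 27798.42 FPKM in CMP:MA9 beside 18.16 to 218.02 FPKM in CMP. In GMP:MA9 they summed to 1121.18 to 13234.22 FPKM beside 1655.95 to 10959.07 FPKM in GMP, and in STHSC:MA9 to 16060.28 to 42691.1 FPKM beside 42.72 to 36582.44 FPKM in ST-HSC. The part of either gene set in the result was not tested.

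**Figure D2:**
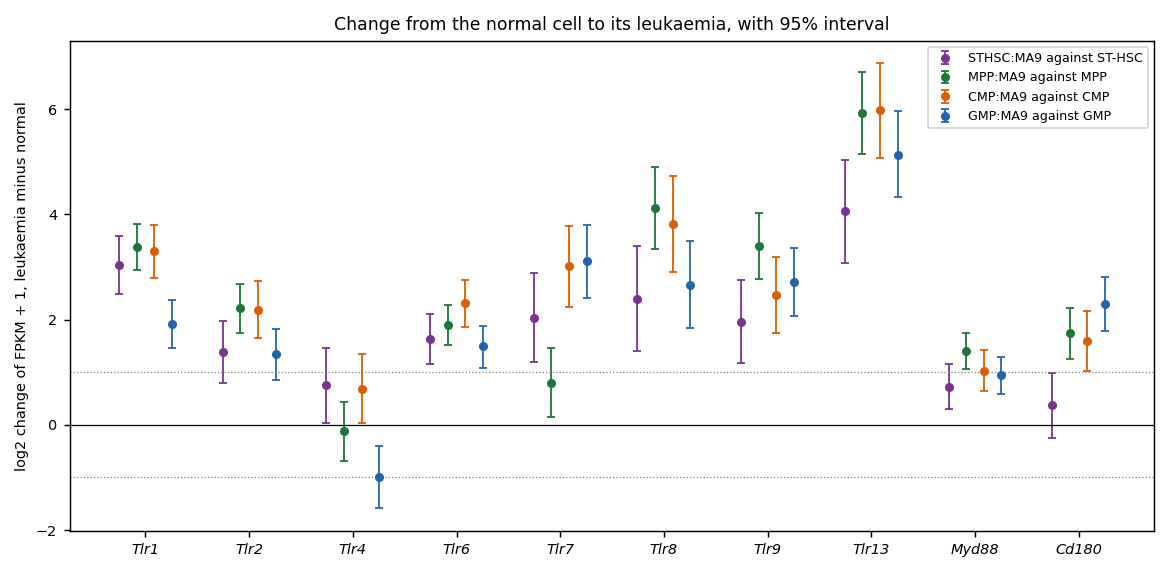
Change from each normal cell to its leukaemia for the 10 genes, as the difference in mean log2(FPKM + 1) with its 95% interval from limma; dotted lines mark a change of 1 in either direction. Tlr13 lies highest in all 4 comparisons (4.06 to 5.98), and Tlr4 lies around 0, from -0.99 to 0.75.

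Tlr13, an endosomal receptor for bacterial ribosomal RNA, was close to absent from most normal samples. In CMP it was 0.47, 0.08, 0.15, 0.12 and 0.1 FPKM and in GMP 0.56, 0.39, 0.84, 1.52 and 0.55 FPKM. In MPP the lowest, median and highest values were 0.15, 0.265 and 0.55 FPKM. ST-HSC parted into replicates 1 to 3 at 0.48, 0.1 and 0.1 FPKM and replicates 4 and 5 at 12.33 and 3.81 FPKM, the libraries with granulocyte and monocyte transcripts. LT-HSC did the same, with 0.22, 0.06 and 0.14 FPKM in replicates 1 to 3 and 31.82 and 12.85 FPKM in replicates 4 and 5. All other normal samples lay below every leukaemia.

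In the leukaemias Tlr13 was 99.11, 28.05 and 26.25 FPKM in STHSC:MA9 and 84.07, 89.22, 50.21 and 75.69 FPKM in CMP:MA9. The lowest, median and highest values were 43.32, 77.8 and 130.72 FPKM in MPP:MA9 and 44.03, 62.1 and 87.2 FPKM in GMP:MA9. The groups did not overlap in any of the 4 comparisons, although LT-HSC replicate 4, at 31.82 FPKM, lay above 2 of the STHSC:MA9 samples. The change was 4.06 (SE 0.49, adjusted p = 1.09e-08) for STHSC:MA9, 5.93 (SE 0.38, adjusted p = 1.13e-15) for MPP:MA9, 5.98 (SE 0.45, adjusted p = 1.26e-13) for CMP:MA9 and 5.14 (SE 0.40, adjusted p = 8.2e-13) for GMP:MA9, all with limma. Without replicates 4 and 5 of LT-HSC and ST-HSC, the first of these was 5.14 (SE 0.34, limma adjusted p = 1.79e-14).

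**Figure D3:**
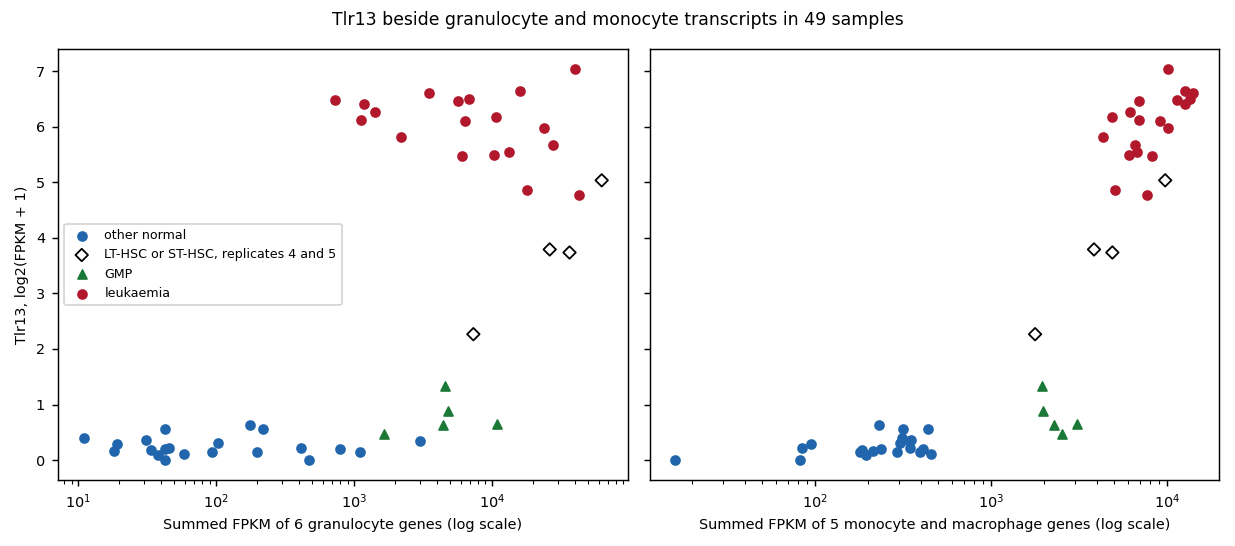
Tlr13 as log2(FPKM + 1) in each of 49 samples against the summed FPKM of 6 granulocyte genes (left) and of 5 monocyte and macrophage genes (right), on log axes. GMP (triangles) held 1655.95 to 10959.07 FPKM of the granulocyte genes and at most 1.52 FPKM of Tlr13, while the 4 stem cell libraries that stood apart (diamonds) held 3.81 to 31.82 FPKM of Tlr13 with both gene sums high.

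Tlr8, the X-linked neighbour of Tlr7, followed Tlr13. In ST-HSC it was 0.84, 0.31, 0.23, 7.9 and 1.91 FPKM, in CMP 0.08, 0.49, 0.71, 0.49 and 0.02 FPKM and in GMP 1.59, 0.37, 1.19, 2.22 and 2.19 FPKM. In MPP the lowest, median and highest values were 0.02, 0.075 and 0.69 FPKM. In normal cells, then, values above 2.22 FPKM occurred only in LT-HSC replicates 4 and 5 (10.5 and 5.18 FPKM) and in ST-HSC replicate 4. STHSC:MA9 held 23.29, 8.51 and 7.66 FPKM and CMP:MA9 24.21, 25.26, 13.13 and 12.21 FPKM. MPP:MA9 ran from 7.7 over a median of 20.5 to 32.15 FPKM, and GMP:MA9 from 5.78 over 14.3 to 38.32 FPKM. STHSC:MA9 overlapped ST-HSC through ST-HSC replicate 4, and the other 3 pairs of groups did not overlap. The changes were 2.40, 4.13, 3.82 and 2.66 for the leukaemias from ST-HSC, MPP, CMP and GMP, each against its normal cell and each called with limma (adjusted p at most 1.05e-04). Without the 4 libraries named above, the change for STHSC:MA9 was 3.13 (SE 0.46, limma adjusted p = 9.01e-07).

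Tlr7, a receptor for single-stranded RNA, had its own pattern among normal cells. Its mean was highest in MPP, with a lowest, median and highest value of 6.82, 8.75 and 13.24 FPKM. In CMP it was 1.44, 0.75, 4.1, 1.85 and 0.84 FPKM and in GMP 0.49, 0.64, 1.77, 0.52 and 0.9 FPKM. ST-HSC held 0.96, 4.09, 1.54, 5.34 and 5.41 FPKM. LT-HSC held 0.03, 0.37, 0.3, 12.59 and 5.69 FPKM. No MPP sample overlapped CMP, GMP or ST-HSC, whereas LT-HSC replicate 4, which is among the libraries that stood apart, lay within the range of MPP. The leukaemias were more alike, with 31.83, 13 and 8.66 FPKM in STHSC:MA9 and 18.16, 21.24, 18.58 and 21.77 FPKM in CMP:MA9. MPP:MA9 ran from 4.49 over a median of 21.2 to 27.08 FPKM, and GMP:MA9 from 10.32 over 14.2 to 21.06 FPKM. CMP:MA9 and GMP:MA9 lay wholly above their normal cells, with changes of 3.02 (SE 0.38, limma adjusted p = 2.26e-08) and 3.11 (SE 0.34, limma adjusted p = 2.3e-09). STHSC:MA9 was higher than ST-HSC by 2.04 (SE 0.41, limma adjusted p = 9.82e-05). For MPP:MA9 the difference from MPP was 0.80 (SE 0.33, 95% interval from 0.14, limma adjusted p = 0.0326), the groups overlapped through MPP:MA9 replicate 6, and this was not called. Without that leukaemia it was 1.14 (limma adjusted p = 0.00106) and was called.

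Tlr9, which recognises bacterial DNA, was low in every normal group. It was 0.97, 0.6, 1.15, 4.21 and 1.01 FPKM in ST-HSC, 3.24, 3.63, 1.41, 3.02 and 1.79 FPKM in CMP and 2.68, 2.14, 2.05, 2.12 and 2.54 FPKM in GMP. MPP ran from 0.94 over a median of 1.34 to 2.18 FPKM. The 19 leukaemias all lay above the highest normal sample, LT-HSC replicate 4 at 5.58 FPKM, though the lowest leukaemia, at 5.71 FPKM, was close to it. STHSC:MA9 held 11.18, 5.71 and 8.35 FPKM and CMP:MA9 31.17, 29.61, 9.96 and 12.07 FPKM. MPP:MA9 ran from 13.83 over 22.6 to 43.64 FPKM, and GMP:MA9 from 9.5 over 23.5 to 40.48 FPKM. The rise was 1.96 (SE 0.39), 3.40 (SE 0.31), 2.47 (SE 0.36) and 2.72 (SE 0.32) for the origins ST-HSC, MPP, CMP and GMP, and limma adjusted p-values were at most 6.45e-05. Plasmacytoid dendritic cells are a known source of Tlr7 and Tlr9, and 5 of their genes (Siglech, Ccr9, Ly6d, Irf8 and Bst2) were summed. The sum was 39.85 to 67.64 FPKM in STHSC:MA9 and 88.98 to 217.65 FPKM in MPP:MA9. In CMP:MA9 it was 74.68 to 151.59 FPKM and in GMP:MA9 43.65 to 134.19 FPKM. Normal cells held 35.95 to 95.08 FPKM in ST-HSC, 79 to 139.99 FPKM in MPP, 78.31 to 146.39 FPKM in CMP and 66.88 to 93.85 FPKM in GMP. The part of these genes in the levels of Tlr7 and Tlr9 was not tested.

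Of the surface receptors, Tlr1, which joins Tlr2 to bind triacylated lipopeptides, was lowest in MEP (0.0, 0.05, 0.04 and 0.1 FPKM) and, among normal groups, highest in GMP (3.44, 4.85, 3.0, 4.16 and 4.12 FPKM). CMP held 0.85, 1.72, 0.71, 0.56 and 0.27 FPKM. All 19 leukaemias lay above every normal sample, between 8.85 and 26.08 FPKM. STHSC:MA9 held 16.36, 12.98 and 13.53 FPKM and CMP:MA9 17.39, 16.5, 13.6 and 18.15 FPKM. The rise was 3.04 (SE 0.27) in STHSC:MA9, 3.38 (SE 0.21) in MPP:MA9 and 3.30 (SE 0.25) in CMP:MA9, and 1.91 (SE 0.23) in GMP:MA9 (limma adjusted p at most 8.23e-09).

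Tlr6, the other partner of Tlr2, was between 0.18 and 3.79 FPKM in normal samples and between 4 and 12.57 FPKM in leukaemias, so that no leukaemia overlapped a normal sample. STHSC:MA9 held 12.57, 4.38 and 4.0 FPKM, of which the first was the highest of all 49 samples. The rise was 1.63 (SE 0.24), 1.90 (SE 0.19), 2.31 (SE 0.22) and 1.49 (SE 0.20) for the origins ST-HSC, MPP, CMP and GMP (limma adjusted p at most 4.54e-07). Since the exons of Tlr1 and Tlr6 share the windows given above, part of the reads of either gene can have been counted for the other.

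Tlr2 itself was 3.58, 2.04, 2.41, 9.03 and 3.02 FPKM in ST-HSC, 3.53, 3.55, 2.42, 1.56 and 1.22 FPKM in CMP and 4.36, 5.9, 4.47, 3.42 and 4.17 FPKM in GMP. LT-HSC replicate 4 held 18.34 FPKM, more than 15 of the 19 leukaemias. STHSC:MA9 held 15.24, 5.97 and 13.61 FPKM and overlapped ST-HSC through ST-HSC replicate 4. CMP:MA9 held 17.34, 18.26, 11.49 and 10.98 FPKM, MPP:MA9 ran from 13 over 19.2 to 31.08 FPKM and GMP:MA9 from 11.45 over 12.1 to 16.68 FPKM, and none of these overlapped its normal cell. The rise was 1.38 (SE 0.29), 2.22 (SE 0.23), 2.19 (SE 0.27) and 1.34 (SE 0.24) in the same order (limma adjusted p at most 1.54e-04), and 1.71 (SE 0.28) for STHSC:MA9 without the 4 stem cell libraries named above.

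Tlr4, the receptor for lipopolysaccharide, did not follow the others. Among normal cells its mean was highest in GMP, at 8.9, 8.43, 5.78, 7.58 and 6.92 FPKM, and it was 1.73, 1.43, 1.7, 1.63 and 0.5 FPKM in CMP. LT-HSC, at 3.38, 6.32, 4.32, 9.21 and 6.06 FPKM, overlapped GMP and held the highest normal value. STHSC:MA9 held 4.59, 11.28 and 8.47 FPKM, and CMP:MA9 1.49, 1.72, 5.39 and 3.63 FPKM. MPP:MA9 ran from 0.83 over 4.55 to 6.59 FPKM, and GMP:MA9 from 1.58 over 3.1 to 6.3 FPKM. Every leukaemia group overlapped its normal cell, and the values of 0.75 (SE 0.35, adjusted p = 0.0762) for STHSC:MA9, -0.12 (SE 0.28, adjusted p = 0.724) for MPP:MA9 and 0.68 (SE 0.32, adjusted p = 0.0671) for CMP:MA9 did not pass the limma test. GMP:MA9 differed from GMP by -0.99 (SE 0.29, limma adjusted p = 0.00394), just short of the limit of 1 in size. It passed that limit, from -1.02 to -1.15, when GMP:MA9 replicate 2 or 6 or GMP replicate 3 or 5 was left out, and with a pseudocount of 0.1 it was -1.20. It was also called with the replicate block (-1.03), with the correction for GC content and length (-1.06) and with both (-1.09). Without replicates 4 and 5 of LT-HSC and ST-HSC, STHSC:MA9 was called higher than ST-HSC, at 1.12 (SE 0.38, limma adjusted p = 0.0147), and without STHSC:MA9 replicate 1 it was called at 1.07 (limma adjusted p = 0.0284).

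Myd88, the adaptor that the 8 Toll-like receptors share, had the smallest ratio of highest to lowest group mean, from 6.57 ± 0.198 FPKM (SD, n = 4) in MEP to 23.5 ± 3.73 FPKM (SD, n = 6) in MPP:MA9. It was 7.4, 6.92, 6.43, 14.4 and 11.39 FPKM in ST-HSC, 9.37, 7.78, 7.62, 8.36 and 9.43 FPKM in CMP and 7.89, 8.22, 7.0, 7.58 and 6.74 FPKM in GMP. In the leukaemias it was 18.16, 12.32 and 15.98 FPKM in STHSC:MA9 and 18.14, 22.64, 17.55 and 15.77 FPKM in CMP:MA9. MPP:MA9 ran from 18.19 over 23.6 to 27.86 FPKM, and GMP:MA9 from 12.17 over 14.8 to 22.55 FPKM. Apart from STHSC:MA9, which overlapped ST-HSC through ST-HSC replicate 4, the leukaemia groups lay above their normal cells. Myd88 rose in MPP:MA9 by 1.40 (SE 0.17, limma adjusted p = 4.03e-09) and in CMP:MA9 by 1.03 (SE 0.19, limma adjusted p = 2.22e-05). The second value lay at the limit of 1, and without CMP:MA9 replicate 2 it was 0.93 and without CMP replicate 3 it was 1.00, neither of them called. The differences of 0.72 in STHSC:MA9 (SE 0.21, adjusted p = 0.00449) and 0.94 in GMP:MA9 (SE 0.17, adjusted p = 2.24e-05) were below the limit of 1 in the limma fit. The first was 1.04 (SE 0.20, limma adjusted p = 7.02e-05) without the 4 stem cell libraries named above, and the second was 1.02 with a pseudocount of 0.1.

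Cd180 had the highest mean FPKM, a measure scaled by length, of the 10 genes in each group but MEP, where Myd88 was higher. ST-HSC held 63.9, 44.48, 44.37, 48.98 and 49.33 FPKM, CMP 51.69, 46.38, 43.79, 51.0 and 28.74 FPKM and GMP 30.57, 34.95, 30.64, 33.01 and 32.31 FPKM. STHSC:MA9, at 80.87, 41.76 and 79.84 FPKM, overlapped ST-HSC, and the difference of 0.37 did not pass the limma test (SE 0.31, 95% interval from -0.25, adjusted p = 0.329). The remaining leukaemias lay above their normal cells, with 185.59, 177.65, 96.33 and 98.99 FPKM in CMP:MA9. MPP:MA9 ran from 60.2 over 146 to 213.27 FPKM, and GMP:MA9 from 102.76 over 160 to 260.57 FPKM. Cd180 rose by 1.74 (SE 0.24, limma adjusted p = 1.15e-07) in MPP:MA9, by 1.60 (SE 0.28, limma adjusted p = 9.01e-06) in CMP:MA9 and by 2.30 (SE 0.25, limma adjusted p = 2.14e-09) in GMP:MA9. B cells carry Cd180 too, and the 4 B cell genes summed to 12.1 to 64.08 FPKM over the 19 leukaemias, beside 22.54 to 27.77 FPKM in MPP, 15.32 to 24.21 FPKM in CMP and 17.82 to 29.84 FPKM in GMP. Most of this sum was Cd79b, with a mean of 35.3 FPKM in MPP:MA9 beside 22.6 FPKM in MPP and of 31.3 FPKM in CMP:MA9 beside 17.7 FPKM in CMP, while Pax5 was at 0 in all leukaemias, and the part of B cell transcripts in the result was not tested.

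Whether the size of these changes depended on the origin was asked with an F test over the 4 changes. It passed for 6 of the 10 genes, where 38% of all 12600 genes passed. For Tlr7 (limma adjusted p = 5.74e-04) the changes were 2.04, 0.80, 3.02 and 3.11 for the origins ST-HSC, MPP, CMP and GMP, lowest for MPP, the normal cell with the most Tlr7. For Tlr1 (limma adjusted p = 0.00109) they were 3.04, 3.38, 3.30 and 1.91, lowest for GMP, the normal cell with the most Tlr1. For Cd180 (limma adjusted p = 0.00211) they were 0.37, 1.74, 1.60 and 2.30, and for Tlr4 (limma adjusted p = 0.00461) 0.75, -0.12, 0.68 and -0.99. These 4 genes passed in each of 40 fits that left out 1 sample. Tlr8 (limma adjusted p = 0.0461) and Tlr13 (limma adjusted p = 0.0463) passed narrowly, in 15 and 11 of those 40 fits, and without replicates 4 and 5 of LT-HSC and ST-HSC their adjusted p-values were 0.0572 and 0.105.

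The leukaemias were then compared with each other, to ask whether the receptors still told the cell of origin once the cells were transformed. Tlr9 was lower in STHSC:MA9 (8.41 ± 2.74 FPKM, SD, n = 3) than in MPP:MA9 (26 ± 10.8 FPKM, SD, n = 6), by -1.47 (SE 0.44, limma adjusted p = 0.0388), and the groups did not overlap. This was the 1 call among 10 genes in that pair, where 2.88% of 12128 genes were called in either direction. It was lost, with limma adjusted p-values from 0.053 to 0.186, when STHSC:MA9 replicate 2 or 3 or MPP:MA9 replicate 1, 3, 4 or 6 was left out. In this pair 6 of the 10 genes had an unadjusted limma p below 0.05. Among them Myd88 differed by -0.57 (SE 0.18, limma adjusted p = 0.05), with no overlap between the groups. Tlr2 differed by -0.80 (SE 0.26, limma adjusted p = 0.0523), and neither gene was called. With STHSC:MA9 replicate 1 left out, Tlr2 (-1.02, limma adjusted p = 0.0278) and Tlr13 (-1.47, limma adjusted p = 0.00962) were called lower as well, and with MPP:MA9 replicate 2 left out Cd180 was (-1.19, limma adjusted p = 0.0388). Corrected for GC content and length, the Tlr9 difference was -1.06 (limma adjusted p = 0.206), and 23 of 11655 genes were called in this pair, beside 349 of 12128 without the correction. STHSC:MA9 also had the lowest mean of Cd180 among leukaemias, at 67.5 ± 22.3 FPKM (SD, n = 3), beside 173 ± 66 FPKM (SD, n = 6) in GMP:MA9, which it did not overlap. The difference of -1.32 (SE 0.38) did not pass the limma test (adjusted p = 0.0971).

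None of the 10 genes was called by limma in the other 5 pairs, where between 0.115% and 0.536% of all genes were called in 4 of them and 2.23% in MPP:MA9 against GMP:MA9. Of these 5 pairs, STHSC:MA9 against CMP:MA9 had 3 genes at an unadjusted p below 0.05, STHSC:MA9 against GMP:MA9 had 3, MPP:MA9 against GMP:MA9 had 2 and the remaining pairs had 0. The shares called over all genes were 0.363% in STHSC:MA9 against CMP:MA9, 0.536% in STHSC:MA9 against GMP:MA9, 0.115% in MPP:MA9 against CMP:MA9 and 0.206% in CMP:MA9 against GMP:MA9. Tlr13 was called lower in STHSC:MA9 than in CMP:MA9 when STHSC:MA9 replicate 1, with 99.11 FPKM, was left out (-1.40, limma adjusted p = 0.043). Myd88 was higher in MPP:MA9 than in GMP:MA9 by 0.58 (SE 0.15, limma adjusted p = 0.0127), below the limit of 1. Over the 19 leukaemias Tlr9 and Cd180 moved together (Pearson r = 0.87 on log2(FPKM + 1)), while Tlr4 ran against Cd180 (r = -0.61) and against Tlr9 (r = -0.51). These points share their library preparation, and the values are a description.

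**Figure D4:**
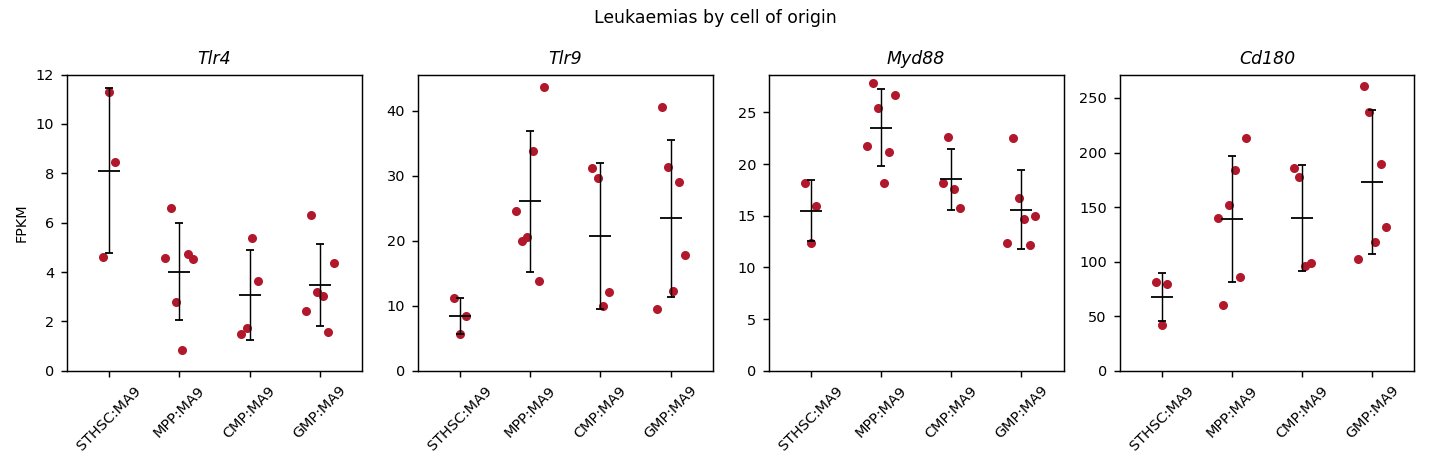
FPKM of Tlr4, Tlr9, Myd88 and Cd180 in each of the 19 leukaemias by cell of origin, with mean and SD. STHSC:MA9 lies lowest for Tlr9 (5.71 to 11.18 FPKM) and Cd180 (41.76 to 80.87 FPKM) and has the highest mean of Tlr4 (8.11 FPKM), but only the Tlr9 difference from MPP:MA9 passed the test.

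The steps between normal cells were compared to ask where the receptors change before transformation. In ST-HSC against LT-HSC none of the 10 genes was called by limma, and 1 had an unadjusted p below 0.05, where 1.5% of 12367 genes were called higher and 0.768% lower. That gene was Cd180, higher in ST-HSC by 0.91 (SE 0.24, limma adjusted p = 0.0145). LT-HSC held 16.12, 14.78, 21.38, 53.54 and 42.76 FPKM of it, so that the replicates with granulocyte, monocyte and B cell transcripts were the high ones. Without replicates 4 and 5 of both groups, Cd180 was higher in ST-HSC by 1.49 (SE 0.20, limma adjusted p = 2.92e-05) and Tlr7 by 1.26 (SE 0.35, limma adjusted p = 0.0194), and both were called. Leaving out LT-HSC replicate 4 or 5 alone gave 1.16 and 1.08 for Cd180, both called. Tlr8 and Tlr13 reached the minimum of 1 FPKM in the fit of normal cells only through these libraries and could not be tested without them.

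From ST-HSC to MPP, Tlr7 was called higher by 1.34 (SE 0.47, limma adjusted p = 0.0445), the 1 call among the 10 genes, where 2.13% of all genes were called higher and 1.31% lower. This call was lost in 9 of 11 fits that left out 1 sample, namely each MPP replicate and ST-HSC replicates 1, 2 and 3, with limma adjusted p-values from 0.0548 to 0.138. Without the 4 stem cell libraries named above it was 1.79 (SE 0.30, limma adjusted p = 1.84e-04). From MPP to CMP, Tlr7 fell by 1.98 on the log2 scale (SE 0.47, limma adjusted p = 0.0045) and Tlr4 fell by 1.09 (SE 0.22, limma adjusted p = 0.00106), 2 calls among 10, where 2.83% of all genes were called lower and 1.49% higher. Tlr4 was no longer called, at -0.93, when CMP replicate 5 was left out.

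From CMP to GMP, Tlr4 rose by 1.85 (SE 0.23, limma adjusted p = 3.92e-07) and Tlr1 by 1.47 (SE 0.32, limma adjusted p = 6.21e-04), 2 calls among 10, where 3.31% of all genes were called higher and 7.94% lower. The groups did not overlap for either gene. Tlr4 thus fell from MPP to CMP and was higher again in GMP, while Tlr7 stayed low, at 0.864 ± 0.532 FPKM (SD, n = 5) in GMP. From CMP to MEP, Cd180 fell by 2.80 (SE 0.25, limma adjusted p = 1.93e-09), from 44.3 ± 9.3 FPKM (SD, n = 5) to 5.86, 7.26, 3.89 and 4.94 FPKM. Tlr9 fell by 1.29 (SE 0.38, limma adjusted p = 0.0097) and Tlr2 by 1.19 (SE 0.40, limma adjusted p = 0.0253), so that 3 of 10 genes were called lower, where 9.49% of all genes were called lower and 2.34% higher. The Tlr2 call was lost, with limma adjusted p-values from 0.056 to 0.0664, when CMP replicate 1 or 2 or MEP replicate 1, 2 or 3 was left out. MEP had the lowest mean of the 10 groups for each gene except Tlr8, where CMP and MPP were lower and MEP replicate 4 held 1.65 FPKM beside at most 0.07 FPKM in the other MEP samples, and neighbouring groups in these orders mostly overlapped. MEP stood clear of the next lowest group for Tlr1, Tlr2, Tlr7 and Cd180.

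The genes most like each member over all 49 samples, by Pearson correlation of log2(FPKM + 1), were named as a description. The points share 10 groups, and most of each correlation is the gap between normal and leukaemic cells. Tlr13 ran closest to Fn1 (r = 0.992) and Clec4a3 (r = 0.989), and Tlr8 to Fn1 (r = 0.971) and Sirpb1c (r = 0.969). Fn1, which encodes fibronectin, had a mean of 415 FPKM in leukaemias and 6 FPKM in normal samples. Tlr1 ran closest to Itga1 (r = 0.977) and Emr1 (r = 0.971), an older name of Adgre1, the gene of a macrophage surface antigen, Tlr2 to Tgfbi (r = 0.965) and Fam129a (r = 0.963), and Tlr9 to Cd300lg (r = 0.972) and Ptpro (r = 0.969). Tlr6 ran closest to Itch (r = 0.955) and Lats2 (r = 0.951), Tlr7 to Pag1 (r = 0.934) and Gm11428 (r = 0.930), and Cd180 to 9930111J21Rik2 (r = 0.947) and Ncoa3 (r = 0.939). Myd88 ran closest to Actb (r = 0.934) and AI607873 (r = 0.934). Tlr4 had the lowest best match, Mctp1 at r = 0.831 and Ptgs1 at r = 0.823. Within the 19 leukaemias alone, Tlr13 and Fn1 kept r = 0.885 and Tlr4 and Mctp1 r = 0.802, while Tlr1 and Itga1 had r = 0.421.

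Other genes of the pathway were counted from a list of 42, of which 37 reached the minimum level in the fit of leukaemias and their normal cells. In STHSC:MA9 11 were higher than in the normal cell and 0 lower, in MPP:MA9 13 and 0, in CMP:MA9 12 and 0, and in GMP:MA9 11 and 2. With a pseudocount of 0.1, without the 4 stem cell libraries named above or without the fold limit, 1 was lower in STHSC:MA9. With no filter or without the fold limit, 1 was lower in MPP:MA9. The main counts stand beside the same background as above, 12.3%, 13.5%, 13% and 13.5% of all genes called higher, and the median change of the 37 was 0.51, 0.51, 0.61 and 0.61.

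Of the 8 co-receptors and accessory proteins, 4 were higher in STHSC:MA9, MPP:MA9 and CMP:MA9, and 2 were higher and 2 lower in GMP:MA9. Of the 12 kinases and ligases 2 were higher in STHSC:MA9 and 3 in each of the other comparisons, and no difference between roles was tested. Cd14, which hands lipopolysaccharide to Tlr4, rose by 3.20 (SE 0.51), 3.73 (SE 0.40) and 3.48 (SE 0.47) in STHSC:MA9, MPP:MA9 and CMP:MA9 (limma adjusted p at most 2.32e-06). In GMP:MA9 it rose by 1.49 (SE 0.42, limma adjusted p = 0.00277). Irf5, a transcription factor that acts downstream of Myd88, rose in all 4 comparisons, by 2.48 (SE 0.32), 3.31 (SE 0.25), 3.30 (SE 0.30) and 3.22 (SE 0.27), and its mean was 49.4 ± 11.3 FPKM (SD, n = 6) in GMP:MA9 beside 4.38 ± 0.935 FPKM (SD, n = 5) in GMP. Ly96, the partner of Tlr4 at the surface, rose in GMP:MA9 by 1.67 (SE 0.31, limma adjusted p = 1.82e-05). The 2 genes that fell there were Lbp, the serum protein that carries lipopolysaccharide, by 1.52 (SE 0.40, limma adjusted p = 0.00131), and Hsp90b1, the chaperone that folds most of these receptors, by 1.46 (SE 0.13, limma adjusted p = 3.98e-11). Hsp90b1 was 972 ± 63.3 FPKM (SD, n = 5) in GMP and 359 ± 79.5 FPKM (SD, n = 6) in GMP:MA9.

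Of the other genes on the list, which are named here after their values were seen, Ly86, the partner of Cd180, rose by 2.47, 3.02 and 1.40 in STHSC:MA9, MPP:MA9 and CMP:MA9. In GMP:MA9 its difference of 0.71 did not pass (SE 0.33, limma adjusted p = 0.0587), with 203 ± 53.8 FPKM (SD, n = 6) beside 122 ± 25.8 FPKM (SD, n = 5) in GMP. Unc93b1, which brings the endosomal receptors to their compartment, rose by 2.28, 2.29 and 1.62 in the same 3 comparisons and differed by 0.93 (limma adjusted p = 0.00119) in GMP:MA9. Tlr5, the flagellin receptor, was the 1 of the 4 other receptors that reached the minimum level, and it rose in all 4 comparisons, by 1.41 to 2.36. Tlr3, the receptor for double-stranded RNA that does not use Myd88, had means of 0.596 to 1.23 FPKM in the 4 normal groups and 0.0325 to 0.147 FPKM in the leukaemias, below the minimum, and was not tested. Among kinases and ligases Irak2 rose in all 4 comparisons, by 1.38 to 2.17, and Irak4 in 3, while Irak1, Traf3, Traf6, Tab1, Map3k7, Tbk1, Chuk and Ikbkg were called in none. Of 3 target genes tested, 1 was higher in STHSC:MA9 and CMP:MA9 and 2 in MPP:MA9 and GMP:MA9. Tnf rose in all 4, by 1.54 to 1.91, Il1b rose in MPP:MA9 and GMP:MA9, by 1.59 and 1.36, and Cxcl2, with values from -0.61 to -0.19, was called in none.

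**Figure D5:**
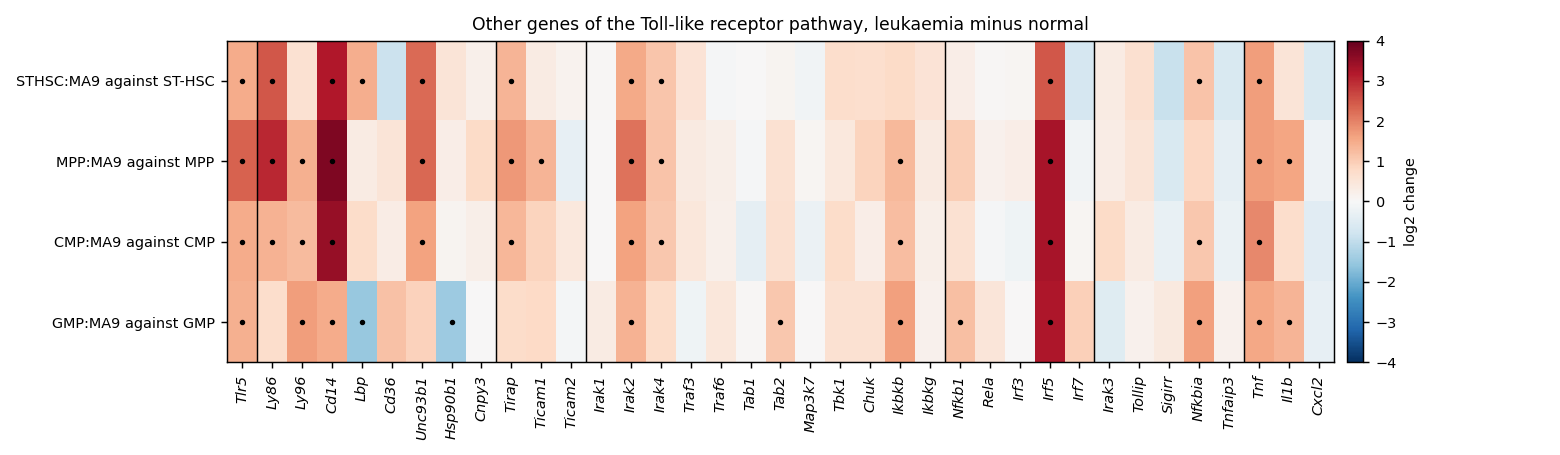
Change in mean log2(FPKM + 1) from normal cell to leukaemia for the 37 other pathway genes tested, in the order other receptors, co-receptors and accessory proteins, other adaptors, kinases and ligases, transcription factors, inhibitors and targets, with lines between these roles. Dots mark called genes, with the largest rises for Cd14 (up to 3.73) and Irf5 (up to 3.31) and called falls for Lbp and Hsp90b1 in GMP:MA9.

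Among leukaemias, 5 list genes were lower in STHSC:MA9 than in MPP:MA9, where the background was 2.88% of all genes. They were Unc93b1 (-1.07), Cnpy3 (-1.24), a chaperone of these receptors, Ticam1 (-1.13), the adaptor of Tlr3 and Tlr4, Irf5 (-1.30) and Irf7 (-1.39). With the correction for GC content and length, which left 0.197% of all genes called in this pair, 0 of the list genes were called, and these 5 differences lay between -0.63 and -1.06 with limma adjusted p-values from 0.0239 to 0.184. In the steps between normal cells, Unc93b1 rose from ST-HSC to MPP by 1.06 (SE 0.35, limma adjusted p = 0.0352), the 1 of 36 list genes called higher, where 2.13% of all genes were, and 0 were called higher with no filter, median-ratio scaling, the replicate block or the correction for GC content and length. From CMP to GMP, Lbp rose by 1.66 (SE 0.35, limma adjusted p = 3.95e-04) and Hsp90b1 by 1.41 (SE 0.12, limma adjusted p = 1.18e-09), among 4 of 36 list genes called higher, and Irf7 fell by 1.26 (SE 0.28, limma adjusted p = 6.45e-04) as the 1 called lower, where 3.31% of all genes were called higher and 7.94% lower. With the correction for GC content and length 0 list genes were called lower in this step. From CMP to MEP 7 of 36 list genes were called lower and 0 higher, where 9.49% of all genes were called lower and 2.34% higher, with Ly86 falling by 4.04 (SE 0.61, limma adjusted p = 8.88e-06) and Lbp by 3.45 (SE 0.37, limma adjusted p = 3.03e-08).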

How the data were processed

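RNA of sorted cells from 49 mice had been amplified with a kit that does not keep strand and sequenced. The authors deposited FPKM values, estimated with RSEM on mm9 according to the submitters' processing notes, while the aligner, the versions and the annotation are not given in the sources used here. The table held 38253 genes and 19 further sample columns that match no label and were not used. The methods give a minimum sequencing depth, but the table holds no read counts per sample, so that precision rests on the spread between mice. According to the paper the samples came from more than a single replicate experiment. The labels used here do not say which sample belongs to which experiment. Whether mice of a group shared donor cells, or whether groups differ by experiment, therefore cannot be seen.

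Values were taken as log2(FPKM + 1) and tested two-sided with limma 3.58.1 in R 4.3.3 (trended variances, genes averaging 1 FPKM or more over the samples fitted), with Benjamini-Hochberg adjustment over 12600 genes for leukaemias and their normal cells, 12128 for leukaemias and 12367 for normal cells. The test was checked on simulated data. Figures used Python 3.11.15 with matplotlib 3.10.9. Alternatives covered the pseudocount, the filter, median-ratio scaling, the groups in the fit, the replicate number as a block, GC content and length, the fold limit and single samples left out. Promoters came from RefSeq and were matched without mismatch to NCBIM37, which gave 11 windows for 8 genes. Tlr4 and Tlr7 had no entry.

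The genes, the pathway list, the marker lists and the libraries left out together were chosen with earlier results of these data known. Some marker genes are not reported here and were left out of the sums. Named besides the 10 genes were, per comparison, the 2 list genes with the largest rise and the 2 with the largest fall among those called, and the 2 genes best correlated with each member. Replicate numbers come from the labels. For ST-HSC and LT-HSC every one of 5 same-numbered pairs deviated together (correlations 0.142 to 0.683, mean 0.288), which met the rule for pairing. The values given above for this step still come from the fit of group means, which ignores the pairs. A block for replicate number over all normal groups changed no call of the 10 genes there. In no other comparison did every pair exceed 0.1.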

Additional observations from a re-analysis of the deposited data

Results flagged for a closer look

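In 90 tests for a sample far from the rest of its group, of which chance marks about 1 in 20, 9 values stood apart. STHSC:MA9, with 3 samples, was too small for this test and was not screened. Its replicate 1 held 99.11 FPKM of Tlr13, where the others held 28.05 and 26.25 FPKM. Tlr2 was 0.88 FPKM in MEP replicate 4, where the others held 0.31 to 0.36 FPKM, and 16.68 FPKM in GMP:MA9 replicate 2, where the others held 11.45 to 12.66 FPKM. Tlr8 was 1.65 FPKM in MEP replicate 4, where the others held 0 to 0.07 FPKM, and that library held 3004.36 FPKM over the granulocyte genes and 341.87 FPKM over the monocyte and macrophage genes, beside at most 471.48 and 84.82 FPKM in the other MEP samples, and 93.16 FPKM over the B cell genes, beside 9.85 to 65.78 FPKM. Tlr9 was 4.21 FPKM in ST-HSC replicate 4, where the others held 0.6 to 1.15 FPKM. Tlr7 was 4.49 FPKM in MPP:MA9 replicate 6, where the others held 15.6 to 27.08 FPKM. CMP replicate 5 was low for Tlr4, at 0.5 FPKM beside 1.43 to 1.73 FPKM, and for Cd180, at 28.74 FPKM beside 43.79 to 51.69 FPKM. Tlr13 was 0.47 FPKM in CMP replicate 1, beside 0.08 to 0.15 FPKM, and Cd180 was 63.9 FPKM in ST-HSC replicate 1, beside 44.37 to 49.33 FPKM.

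An F test with limma over the 4 origins found unequal changes between leukaemia and normal cell for Tlr7 (adjusted p = 5.74e-04), Tlr1 (adjusted p = 0.00109), Cd180 (adjusted p = 0.00211), Tlr4 (adjusted p = 0.00461), Tlr8 (adjusted p = 0.0461) and Tlr13 (adjusted p = 0.0463), where 38% of all genes tested did so.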

How the results depend on the processing

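The counts of called genes in the 4 comparisons of leukaemia and normal cell stayed within 1.5 times under every alternative, and no value named above turned its direction. Between STHSC:MA9 and MPP:MA9 the count of 1 went to 0 with no filter on low values, with median-ratio scaling, with the replicate block, with the correction for GC content and length, and with both of the last together. It ran from 0 to 3 with single samples left out. STHSC:MA9 against CMP:MA9 ran from 0 to 1 with single samples left out, and MPP:MA9 against GMP:MA9 went from 0 to 1 without the fold limit. ST-HSC against LT-HSC went from 0 to 1 without the fold limit and to 2 without replicates 4 and 5, and ran from 0 to 1 with single samples left out. MPP against ST-HSC went from 1 to 0 with a pseudocount of 0.1, no filter, median-ratio scaling, and the replicate block with or without the correction for GC content and length, and ran from 0 to 1 with single samples left out. CMP against MPP ran from 1 to 2, and MEP against CMP went from 3 to 6 with a pseudocount of 0.1. With the replicate block 4 genes passed the F test over origins, beside 6 without it. The correction for GC content and length left 23 of 11655 genes called between STHSC:MA9 and MPP:MA9, and 4 with the replicate block added, beside 349 of 12128. The cause of these moves was not tested, apart from the fewer samples in some fits. Median-ratio scaling moved the share of higher genes among all calls from 46.8% to 57.2% for CMP:MA9 against CMP, from 45.5% to 60% for STHSC:MA9 against CMP:MA9, from 62.6% to 50.6% for MPP:MA9 against GMP:MA9, from 66.1% to 44.6% for ST-HSC against LT-HSC, from 61.9% to 45.5% for MPP against ST-HSC and from 29.4% to 46.4% for GMP against CMP. The medians of all genes that it moved by over 0.1 went from -0.16 to -0.01 for CMP:MA9 against CMP, from 0.12 to -0.01 for ST-HSC against LT-HSC, from -0.20 to -0.02 for GMP against CMP and from -0.14 to -0.01 for MEP against CMP. Without read counts, values below about 1 FPKM carry no stated counting error.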
